A study of Mus musculus with 28 samples.

Results

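The transcripts described here are those of Hif1a and 9 genes of glucose uptake and glycolysis, namely Slc2a1, Gpi1, Pfkl, Aldoa, Tpi1, Pgk1, Pgam1, Eno1 and Ldha. They were chosen by symbol, because this group has been described as raised in cells without Sirt6, and make up 10 of the 23393 genes in the deposited mouse liver counts. Of the 10, 9 had enough reads to be tested among 12607 genes, and Eno1 did not. The question was whether livers with reduced Sirt6 held more of these transcripts than wild-type livers, before and after a drug.

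RNA-seq was made from livers of 28 mice of the 129svj strain, 11 to 13 months old, with 7 animals in each of 4 groups. HZ WY livers came from SIRT6 heterozygotes and WT WY livers from wild types gavaged with WY-14643, an agonist of the fatty acid sensor PPARα, at 50 mg/kg. HZ vehicle and WT vehicle livers came from heterozygotes and wild types gavaged with carboxymethylcellulose (CMC, 0.5%) alone. All livers were taken 12 h after gavage, and whole liver was used, so that fewer cells of a type and less RNA per cell cannot be told apart. The labels do not describe the SIRT6 allele or the tissues that carry it, and livers without Sirt6 were not analysed here.

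HIF-1α, the product of Hif1a, pairs with ARNT and switches on genes of glucose uptake and anaerobic glycolysis when oxygen is short. Its amount is set mainly by oxygen-dependent hydroxylation and breakdown of the protein rather than by its mRNA. SIRT6 is a histone deacetylase that, in mouse cells, has been described as holding HIF-1α target genes down. Adult hepatocytes rely on their own set of isoforms, with GLUT2 (Slc2a2) for transport and liver pyruvate kinase (Pklr), whereas Slc2a1 and Aldoa encode forms found in most cells.

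HIF-1 binds a core of ACGTG or GCGTG. The 250 bases before the first-listed transcription start of each gene were searched for both cores on either strand (RefSeq, GRCm38.p6). ACGTG occurred before 5 of the 10 genes (Hif1a, Slc2a1, Ldha, Pgk1 and Pgam1), against 16.6% of 27025 promoters of the same length. GCGTG occurred before 4 of the 10 (Slc2a1, Eno1, Pfkl and Pgam1), against 28.2% of those promoters. Neither was found before Aldoa, Tpi1 or Gpi1. The palindrome CACGTG, which counts as ACGTG on both strands, occurred before Hif1a and Ldha, against 6.05% of promoters. For PPARα, the half-site AGGTCA occurred before Hif1a and Eno1 (13.8% of promoters), and the spaced repeat AGGTCANAGGTCA before 0 of the 10 (0.037%).

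The promoters of 3 genes are shown because these genes differ in the letters present and, as described further on, were all higher after WY. Capitals mark every match to ACGTG or GCGTG on either strand. The windows are chr7:46845554-46845803 on the plus strand for Ldha, chrX:106186850-106187099 on the plus strand for Pgk1, and chr7:126800448-126800697 on the minus strand for Aldoa. The Ldha and Aldoa windows lie inside the gene span that GENCODE M21 gives, as do the Hif1a and Pfkl windows counted above. Other starts of these genes were not searched.
Ldha: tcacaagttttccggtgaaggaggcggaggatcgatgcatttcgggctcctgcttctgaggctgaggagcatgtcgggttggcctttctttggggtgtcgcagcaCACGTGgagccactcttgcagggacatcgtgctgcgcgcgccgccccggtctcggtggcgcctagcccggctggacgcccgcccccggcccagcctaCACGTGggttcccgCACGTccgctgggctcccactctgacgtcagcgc
Pgk1: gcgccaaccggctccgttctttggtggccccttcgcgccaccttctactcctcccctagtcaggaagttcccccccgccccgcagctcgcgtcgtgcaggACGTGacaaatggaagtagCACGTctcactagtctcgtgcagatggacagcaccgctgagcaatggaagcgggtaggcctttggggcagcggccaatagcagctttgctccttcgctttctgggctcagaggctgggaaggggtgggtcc
Aldoa: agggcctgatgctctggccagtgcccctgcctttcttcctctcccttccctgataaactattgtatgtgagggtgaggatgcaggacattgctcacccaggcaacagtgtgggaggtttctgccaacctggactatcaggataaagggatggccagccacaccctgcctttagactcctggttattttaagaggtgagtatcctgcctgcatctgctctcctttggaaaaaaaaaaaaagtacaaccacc
The Ldha window holds 5 matches from both strands, the Pgk1 window 2 and the Aldoa window 0. A match is a description of the letters and not a site of binding.

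Libraries held 15795201 to 20020078 gene counts. Sirt6 itself, with 15 to 79 reads per library, was lower in HZ livers. It ran from 0.882 to 1.38 CPM (read counts relative to the library total, with TMM scaling; median 1.29) in HZ vehicle livers, against 1.91 to 3.53 CPM (median 2.10) in WT vehicle livers, with no overlap. It ran from 1.29 to 2.29 CPM (median 1.47) in HZ WY livers, against 2.27 to 4.18 CPM (median 3.33) in WT WY livers, where the highest HZ animal just exceeded the lowest WT animal. The fold was 0.511 (95% interval 0.401 to 0.652) under vehicle and 0.485 (0.384 to 0.612) under WY, with adjusted p of 0.00696 and 0.00721 in edgeR's quasi-likelihood test. The vehicle call was lost when only the vehicle groups were fitted and without 5 HZ libraries, with log2 differences of -0.96 (adjusted p = 0.173) and -1.04 (adjusted p = 0.0549), against -0.97 with all livers. Those 5 libraries, HZ vehicle animals 38 and 30 and HZ WY animals 14, 15 and 21, stood apart from the others on the second principal component. After WY, Sirt6 was higher in WT livers (fold 1.39, 1.11 to 1.74; edgeR adjusted p = 0.0131), beside 27.4% of all genes called higher. In HZ livers the rise did not pass (fold 1.32, 1.025 to 1.69; adjusted p = 0.0572). The WT call was lost with a transcript length trend removed (adjusted p = 0.0771).

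None of the 9 tested transcripts passed the test of a difference between HZ and WT livers in either treatment. Under vehicle, 0 of 9 passed at an adjusted p below 0.05 (edgeR, Benjamini-Hochberg over all genes), beside 2.07% of all genes tested (0.301% higher and 1.77% lower), and 0 had an unadjusted p under 0.05. DESeq2 and limma also called 0. The estimate was negative for 8 genes and positive for 1. The median log2 difference, HZ minus WT, was -0.03 over the 9 genes and -0.0014 over all genes. The highest upper bound of a 95% interval among the 9 was that of Pgam1, a fold of 1.21, so that for each gene taken alone the interval left out larger rises. Under WY, 0 of 9 passed, beside 3.16% of all genes (1.42% higher and 1.74% lower), and 0 had an unadjusted p under 0.05. DESeq2 and limma again called 0. The median difference was -0.07, against 0.0090 over all genes, and the highest upper bound was a fold of 1.22, also for Pgam1. HZ and WT livers overlapped for all 10 transcripts in both treatments. Of all genes, 0.0397% lay wholly higher and 0.23% wholly lower in HZ livers under vehicle, and 0.452% and 0.896% under WY. The same 0 of 9 was found in both treatments without the 5 HZ libraries that stood apart, where genes called fell to 0 of all genes under vehicle and 48 under WY.

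**Figure D1:**
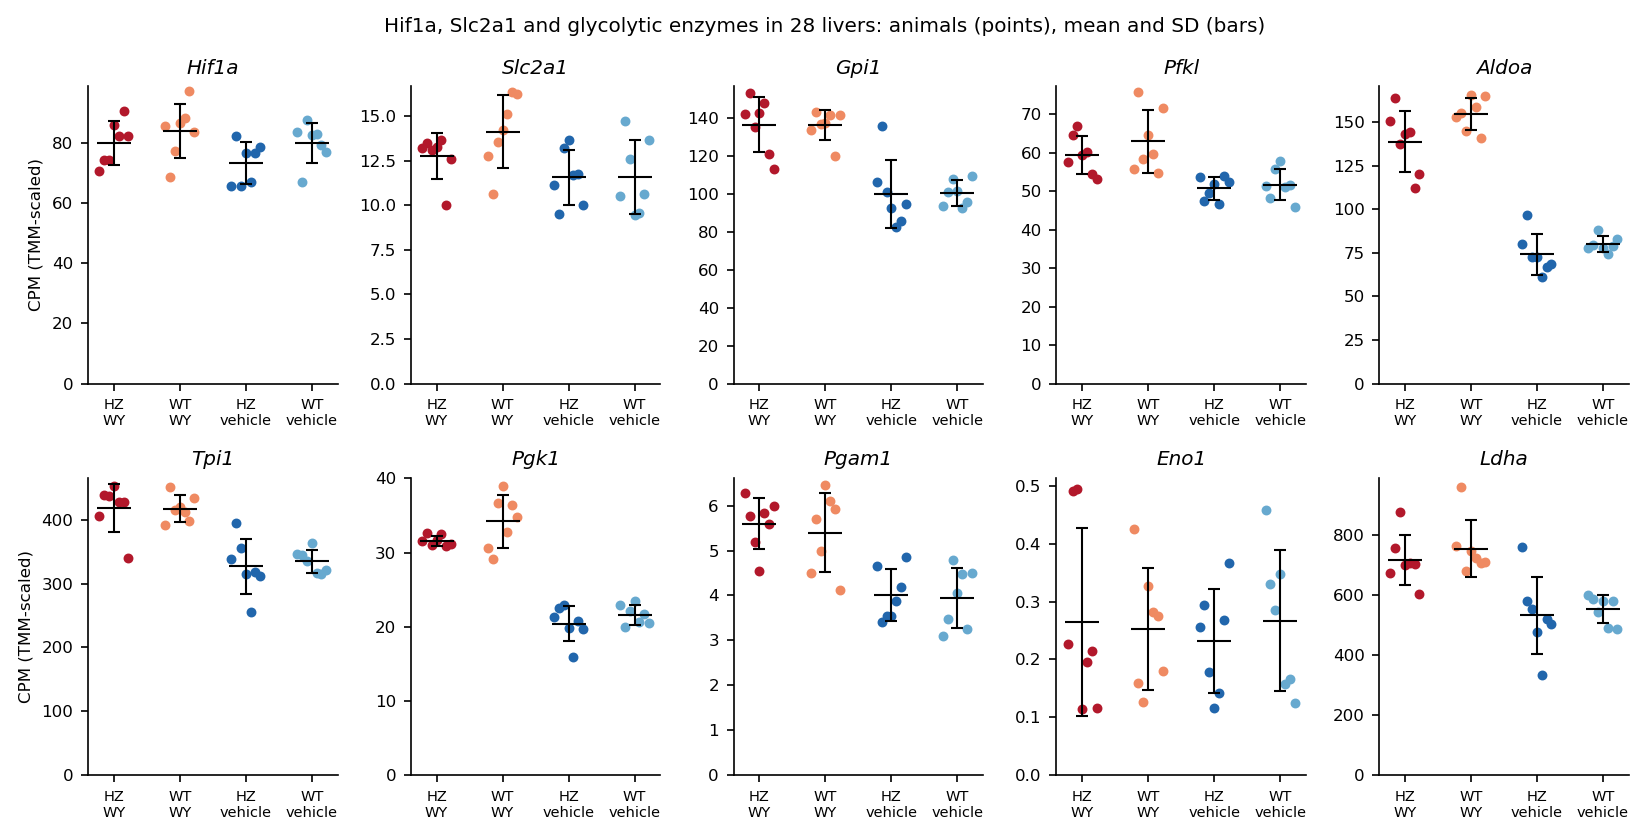
Levels of the 10 transcripts in the 28 livers, in TMM-scaled CPM on the vertical axis, each from 0; points are animals, the wide mark is the group mean and the bars the SD (n = 7). HZ and WT points overlap in every panel, and for Aldoa and Pgk1 all WY points on the left lie above all vehicle points on the right.

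Hif1a, on chromosome 12 (GRCm38, 73901375 to 73947530, plus strand), gave the smallest p of the 9 under vehicle (0.0864, unadjusted). It ran from 65.7 to 82.5 CPM (median 76.7) in HZ vehicle livers, against 67.2 to 87.9 CPM (median 82.6) in WT vehicle livers. Under WY it ran from 70.7 to 90.7 CPM (median 82.4) in HZ livers, against 69.0 to 97.5 CPM (median 85.7) in WT livers. Most animals of the groups overlapped, with 3 HZ vehicle animals (30, 35 and 38) below every WT vehicle animal. The log2 difference was -0.13 ± 0.07 (SE; edgeR adjusted p = 0.357) under vehicle and -0.07 ± 0.07 (adjusted p = 0.599) under WY.

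Slc2a1 encodes GLUT1, the glucose transporter of most cells, and lies on chromosome 4 (119108711 to 119137983, plus strand). It ran from 9.52 to 13.7 CPM (median 11.7) in HZ vehicle livers, against 9.43 to 14.7 CPM (median 10.6) in WT vehicle livers. Under WY it ran from 9.99 to 13.7 CPM (median 13.2) in HZ livers, against 10.6 to 16.3 CPM (median 14.2) in WT livers. The vehicle groups covered nearly the same range, and under WY 4 WT animals (19, 20, 24 and 25) were above every HZ animal. The log2 difference was -0.0025 ± 0.11 under vehicle and -0.15 ± 0.11 under WY (edgeR adjusted p = 0.994 and 0.414).

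Gpi1 encodes glucose-6-phosphate isomerase, the step after hexokinase. It ran from 82.5 to 136 CPM (median 94.7) in HZ vehicle livers, against 92.8 to 110 CPM (median 101) in WT vehicle livers, and from 113 to 154 CPM (median 142) in HZ WY livers, against 120 to 144 CPM (median 137) in WT WY livers. HZ values enclosed the WT values in both treatments. Pfkl encodes the liver form of phosphofructokinase, the committed step. Pfkl ran from 46.6 to 53.9 CPM (median 51.7) in HZ vehicle livers, against 45.9 to 57.8 CPM (median 51.4) in WT vehicle livers, and from 53.2 to 66.8 CPM (median 59.3) in HZ WY livers, against 54.7 to 75.8 CPM (median 59.6) in WT WY livers. The medians of the genotypes differed by under 1 CPM.

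Aldoa encodes aldolase A, which splits fructose-1,6-bisphosphate, and had the smallest p of the 9 under WY. It ran from 61.0 to 96.9 CPM (median 72.4) in HZ vehicle livers, against 74.1 to 88.3 CPM (median 79.2) in WT vehicle livers. Under WY it ran from 112 to 164 CPM (median 143) in HZ livers, against 141 to 166 CPM (median 155) in WT livers. The HZ range was the wider of the genotypes each time and reached lower. The log2 difference was -0.11 ± 0.08 (edgeR adjusted p = 0.499) under vehicle and -0.16 ± 0.08 (adjusted p = 0.233; unadjusted p = 0.0622) under WY.

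Tpi1 encodes triosephosphate isomerase, which interconverts the products of aldolase. It ran from 255 to 394 CPM (median 318) in HZ vehicle livers, against 315 to 363 CPM (median 335) in WT vehicle livers, and from 340.0 to 452 CPM (median 429) in HZ WY livers, against 392 to 452 CPM (median 415) in WT WY livers. The groups overlapped, with 1 low animal in each HZ group (38 and 21). Pgk1, on the X chromosome (106187100 to 106203699), encodes phosphoglycerate kinase, the first step to yield ATP. Pgk1 ran from 15.9 to 22.9 CPM (median 20.8) in HZ vehicle livers, against 19.9 to 23.5 CPM (median 21.7) in WT vehicle livers, and from 30.9 to 32.6 CPM (median 31.5) in HZ WY livers, against 29.1 to 39.0 CPM (median 34.8) in WT WY livers. Under WY the 7 HZ animals sat closely together, and 5 of the 7 WT animals were above all of them, but the difference of -0.11 ± 0.07 did not pass (edgeR adjusted p = 0.302).

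Pgam1 encodes phosphoglycerate mutase and was counted by only 54 to 119 reads per library. It ran from 3.41 to 4.86 CPM (median 3.89) in HZ vehicle livers, against 3.10 to 4.79 CPM (median 4.05) in WT vehicle livers, and from 4.55 to 6.27 CPM (median 5.78) in HZ WY livers, against 4.12 to 6.46 CPM (median 5.71) in WT WY livers. Ldha encodes the muscle-type subunit of lactate dehydrogenase, which turns pyruvate into lactate. It ran from 334 to 761 CPM (median 522) in HZ vehicle livers, against 488 to 599 CPM (median 582) in WT vehicle livers. Under WY it ran from 605 to 877 CPM (median 704) in HZ livers, against 680 to 961 CPM (median 723) in WT livers. HZ vehicle livers held both the lowest (animal 38) and the highest (animal 30) vehicle value of Ldha, and both animals are among the 5 that stood apart.

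The enolase step could not be read from Eno1, which had 2 to 10 reads in every library. Eno1 averaged 0.231 ± 0.0895 CPM in HZ vehicle livers and 0.267 ± 0.122 CPM in WT vehicle livers, and 0.265 ± 0.162 CPM in HZ WY livers and 0.253 ± 0.105 CPM in WT WY livers (SD, n = 7). Of the 50-base windows of its longest transcript, 72.2% also occur in transcripts of other genes, with Gm5506 (Eno1b) sharing the most, and reads not placed uniquely took 35.8 to 42.6% of each library. Gm5506, chosen after its values were seen, held 241 to 594 reads. It averaged 15.5 ± 3.87 CPM in HZ vehicle livers and 17.0 ± 1.56 CPM in WT vehicle livers, and 24.3 ± 2.35 CPM in HZ WY livers and 26.5 ± 3.38 CPM in WT WY livers (SD, n = 7). HZ minus WT was -0.14 and -0.13 on the log2 scale, and neither passed (edgeR adjusted p = 0.529 and 0.484).

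Copies also bear on the other counts. The share of such windows found in other genes was 68% for Pgk1, 41.5% for Pgam1, 19.6% for Gpi1, 16.6% for Ldha, 13.5% for Aldoa and 7.51% for Tpi1, and 0 for Hif1a and Slc2a1. Levels of Pgk1, Pgam1 and Eno1 per length rest on the reads that could be placed. Levels per kilobase of transcript in WT vehicle livers ran in the order Ldha (305 ± 25.6 CPM per kb), Tpi1 (208 ± 11.2), Aldoa (51.6 ± 2.93), Gpi1 (34.8 ± 2.35), Hif1a (17.0 ± 1.41), Pfkl (13.9 ± 1.08), Pgk1 (11.8 ± 0.730), Slc2a1 (3.55 ± 0.637), Pgam1 (2.22 ± 0.379) and Eno1 (0.132 ± 0.0604; SD, n = 7). Every neighbouring pair in that order was separated by more than the sum of its SDs.

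Most of the 9 tested transcripts were higher after WY in both genotypes. In HZ livers 7 of 9 rose, beside 29.3% of all genes tested that were called higher, 26.4% called lower and 55.7% called in all. In WT livers 8 of 9 rose, beside 27.4% of all genes called higher, 26.7% called lower and 54.1% called in all. None of the 9 fell. Aldoa changed the most, and Hif1a did not pass in either genotype. The median log2 difference, WY minus vehicle, was 0.43 over the 9 genes in HZ livers, against 0.011 over all genes, and 0.44 in WT livers, against -0.017 over all genes. The WY groups lay wholly above the vehicle groups for 2 of the 10 transcripts in HZ livers (Pgk1 and Aldoa), beside 12.6% of all genes (9.89% lay wholly below), and for 5 in WT livers (Ldha, Pgk1, Aldoa, Tpi1 and Gpi1), beside 15.7% (12.1% below). WY and vehicle livers are in separate deposited tables and carry separate runs of animal numbers, so the drug and any difference in handling cannot be told apart.

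Aldoa averaged 139 ± 17.5 CPM in HZ WY livers and 74.1 ± 11.6 CPM in HZ vehicle livers, and 155 ± 9.35 CPM in WT WY livers and 80.0 ± 4.54 CPM in WT vehicle livers (SD, n = 7). The fold was 1.88 (95% interval 1.67 to 2.10) in HZ and 1.94 (1.73 to 2.17) in WT livers, with edgeR adjusted p of 3.6e-10 and 2.4e-10. Pgk1 averaged 31.6 ± 0.674 CPM in HZ WY livers and 20.4 ± 2.35 CPM in HZ vehicle livers, and 34.2 ± 3.53 CPM in WT WY livers and 21.6 ± 1.33 CPM in WT vehicle livers. Its fold was 1.55 (1.41 to 1.71) in HZ and 1.58 (1.44 to 1.74) in WT livers. Every WY animal of either genotype exceeded every vehicle animal for Aldoa and Pgk1.

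Ldha, the most abundant, averaged 718 ± 83.9 CPM in HZ WY livers and 533 ± 128 CPM in HZ vehicle livers, and 756 ± 94.6 CPM in WT WY livers and 553 ± 46.4 CPM in WT vehicle livers. The fold was 1.35 in HZ (edgeR adjusted p = 0.00187) and 1.37 in WT livers (adjusted p = 0.0013). In HZ livers the groups overlapped through vehicle animal 30. Gpi1 rose by 0.45 and 0.44 on the log2 scale in HZ and WT livers, Pgam1 by 0.48 and 0.45, Tpi1 by 0.36 and 0.32, and Pfkl by 0.23 and 0.28, all with adjusted p of at most 0.00636. Gm5506, the gene that shares enolase sequence, rose by 0.65 and 0.64, and the sum of Eno1 and Gm5506 by 0.65 and 0.63. The tested transcripts named in this paragraph moved in 1 direction. That does not extend to every step from glucose-6-phosphate isomerase to lactate dehydrogenase, since liver pyruvate kinase Pklr fell, as given further on.

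Slc2a1 stood at the edge of the test. It averaged 12.8 ± 1.27 CPM in HZ WY livers and 11.6 ± 1.53 CPM in HZ vehicle livers, a log2 difference of 0.14 ± 0.11 that did not pass (edgeR adjusted p = 0.268). It averaged 14.1 ± 2.03 CPM in WT WY livers and 11.6 ± 2.08 CPM in WT vehicle livers, a difference of 0.29 ± 0.11 that passed (adjusted p = 0.0247). That call was lost without WT vehicle animal 37 (0.24, adjusted p = 0.0632) or 74 (0.25, adjusted p = 0.0625), and without WT WY animal 24 (0.25, adjusted p = 0.061) or 25 (0.25, adjusted p = 0.0585). It was also lost with a term for animals 71 to 78 (0.23, adjusted p = 0.107). Those numbers cover 4 vehicle animals, 3 WT and 1 HZ, and no WY animal. Hif1a averaged 80.2 ± 7.20 CPM in HZ WY livers and 73.4 ± 6.95 CPM in HZ vehicle livers, and 84.1 ± 8.98 CPM in WT WY livers and 80.2 ± 6.64 CPM in WT vehicle livers. Its differences of 0.13 ± 0.07 and 0.07 ± 0.07 did not pass (adjusted p = 0.136 and 0.445). With a transcript length trend removed, Hif1a passed in both genotypes (0.20 and 0.19; adjusted p = 0.0166 and 0.0243), Tpi1 was 0.22 in HZ livers and no longer passed in WT livers (0.14; adjusted p = 0.0706), and Pgam1 was 0.30 in WT livers.

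The response to WY was not shown to differ between genotypes for any of the 9 genes. The difference between the HZ and WT responses was called for 0 of 9 and 0 of all genes (0%; 1182 genes at an unadjusted p under 0.05; DESeq2 called 4 and limma 1 of all genes). Among the 9 it ran from -0.14 for Slc2a1 to 0.06 for Hif1a, with a smallest adjusted p of 0.777. The 95% intervals reached from -0.45 to 0.37, so differences of that size in response are not left out.

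**Figure D2:**
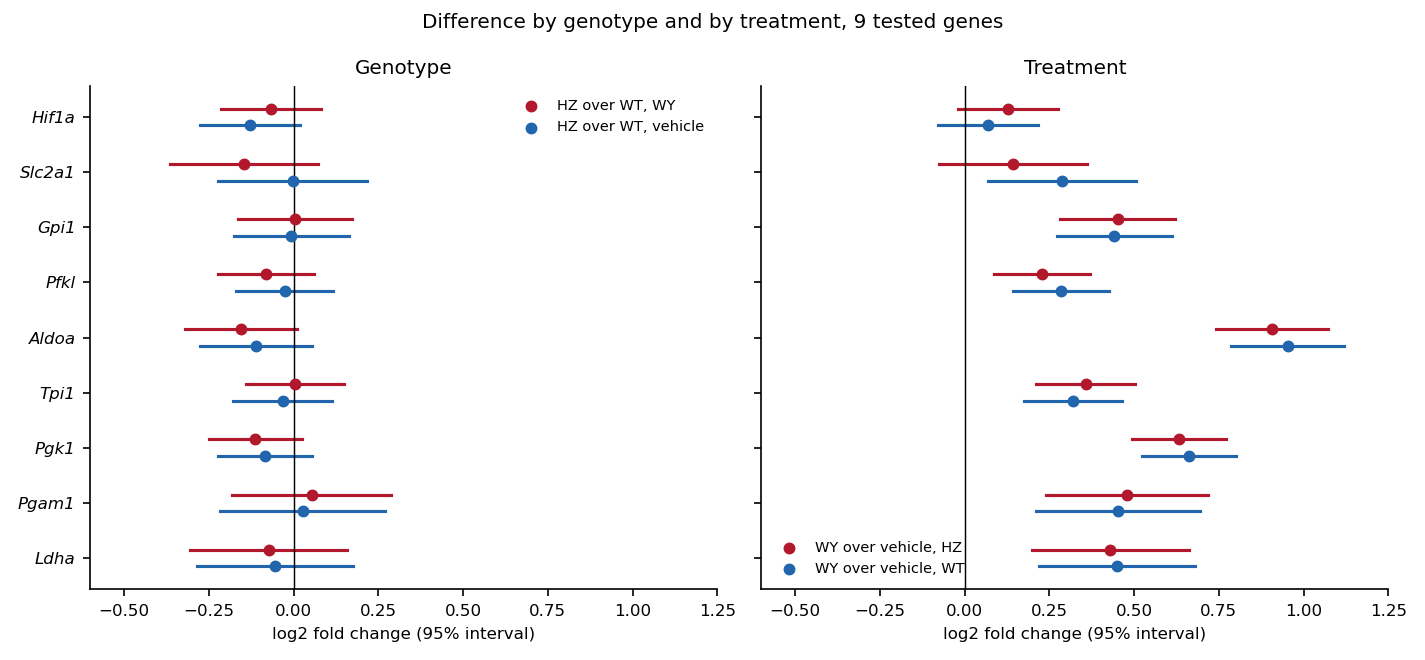
Log2 fold changes (points) with 95% intervals (lines) from edgeR for the 9 tested genes; the left panel shows HZ over WT under WY (red) and vehicle (blue), the right panel WY over vehicle in HZ (red) and WT (blue). Every interval on the left crosses 0, and on the right the points run from 0.07 for Hif1a to 0.95 for Aldoa.

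Other cell types and the make-up of the liver were read from marker lists. Of 10 hepatocyte markers, 0 were called between genotypes, beside 2.07% of all genes under vehicle and 3.16% under WY. After WY, with 26.4% and 26.7% of all genes lower, 9 of these markers were lower in HZ livers and 8 in WT livers. Their summed level ran from 56136 to 93458 CPM in HZ WY livers against 93250 to 126520 CPM in HZ vehicle livers, and from 75996 to 89465 CPM in WT WY livers against 99070 to 127580 CPM in WT vehicle livers. Macrophage markers (11 tested) had 0 calls between genotypes. Their sums reached 867 CPM (median 447) in HZ WY livers and 428 CPM (median 364) in WT WY livers. Under vehicle they reached 797 CPM (median 433) in HZ livers and 522 CPM (median 428) in WT livers. The highest HZ sums were those of animals 14 (WY) and 30 (vehicle), both among the 5 libraries that stood apart. Between genotypes under WY, 1 of 6 neutrophil and monocyte markers (Cxcr2) and 1 of 8 endothelial markers (Cdh5) were higher in HZ livers. The share of all genes called higher there was 1.42%. The list medians were 1.58 and 0.03 on the log2 scale, and under vehicle 0 of each were called. Both genes were named after their values were seen. Neutrophil and monocyte sums ran from 4.14 to 24.3 CPM (median 7.63) in HZ WY livers against 3.64 to 6.19 CPM (median 4.82) in WT WY livers. Cholangiocyte sums ran from 38.1 to 106 CPM (median 47.6) in HZ WY livers against 34.8 to 46.9 CPM (median 40.6) in WT WY livers. Both HZ WY maxima were those of animal 21, also among the 5 libraries that stood apart. Skeletal muscle markers summed to at most 0.332 CPM in any library, with Mb at 0 throughout, and 0 of these markers had enough reads to be tested. The part of these markers in the values above was not tested.

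Animals of 1 group varied together for some of these transcripts. Of 36 gene pairs among the 9, deviations from the group means over the 28 livers correlated positively in 20, from -0.25 to 0.92, with a median of 0.067. Aldoa and Gpi1 were the closest (Pearson r = 0.92), and Tpi1 followed with Gpi1 (0.75), Ldha (0.71) and Aldoa (0.64). Hif1a stood outside that set, with r from -0.25 to Pfkl to 0.33 to Pgk1. These are descriptions over 28 libraries that share depth and scaling.

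Some animals were low or high for several of these genes. HZ vehicle animal 38 was the lowest of its group for Ldha, Tpi1, Gpi1, Aldoa, Pfkl and Pgk1, and HZ vehicle animal 34 the highest for Tpi1, Gpi1 and Aldoa. HZ WY animals 18 and 21 were the 2 lowest of their group for Gpi1, Pfkl and Aldoa. Without these 4 animals, a choice made after seeing the data, r was 0.80 for Aldoa and Gpi1, 0.53 for Ldha and Tpi1, 0.43 for Tpi1 and Gpi1 and 0.25 for Aldoa and Tpi1. With single libraries left out, the same pairs stayed at 0.51 or higher. The SD was larger in HZ vehicle than in WT vehicle livers for 6 of the 9 genes, among them Ldha (128 against 46.4 CPM), Tpi1 (43.0 against 18.0 CPM) and Gpi1 (17.9 against 6.78 CPM), which was not tested. Animals 38 and 21 also had the highest summed cholangiocyte markers of their groups (78.4 and 106 CPM).

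**Figure D3:**
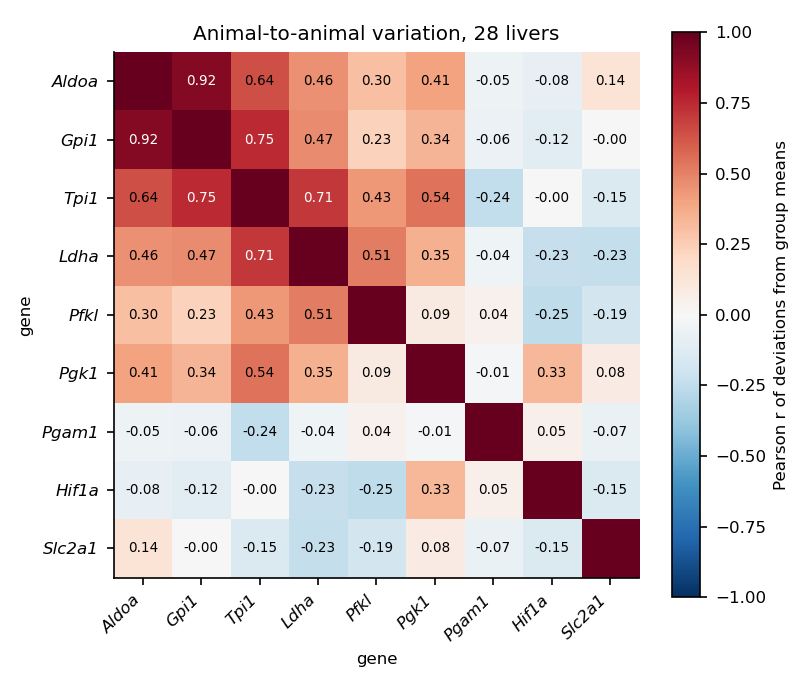
Pearson correlations of deviations from group means of log2 CPM between pairs of the 9 tested genes over 28 livers, from blue (negative) to red (positive). Aldoa, Gpi1, Tpi1 and Ldha form the red block, with the highest value of 0.92 for Aldoa and Gpi1, while Hif1a, Slc2a1 and Pgam1 are pale.

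By the same measure, the gene closest to each of the 9 among all genes tested was Sacm1l for Hif1a (r = 0.85), Kat7 for Slc2a1 (0.75), Naprt1 for Ldha (0.86) and Pfkl (0.73), Atp5a1 for Pgk1 (0.74), Psmd13 for Tpi1 (0.86), 1700056E22Rik for Pgam1 (0.71), and Gpi1 and Aldoa for each other (0.92). Only the last pair lay within the group itself.

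Of 32 other glycolytic genes listed, 25 were tested, and they were called after WY about as often as all genes or less. In HZ livers 6 of 25 rose and 6 fell, beside 29.3% and 26.4% of all genes, with a median log2 difference of 0.07, against 0.011 over all genes. In WT livers 4 rose and 7 fell, beside 27.4% and 26.7% of all genes, with a median of 0.01, against -0.017 over all genes. Slc2a2, the hepatocyte glucose transporter, averaged 209 ± 40.9 CPM in HZ WY livers and 380 ± 43.2 CPM in HZ vehicle livers, and 192 ± 24.4 CPM in WT WY livers and 379 ± 65.1 CPM in WT vehicle livers. It fell by 0.86 and 0.98 on the log2 scale (edgeR adjusted p = 2.0e-07 and 2.6e-08).

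Pfkfb2, which makes the activator of phosphofructokinase, fell by 0.96 and 0.78 in HZ and WT livers. Bpgm, bisphosphoglycerate mutase, rose by 0.57 and 0.52, and Slc16a1, the monocarboxylate transporter MCT1, by 2.04 and 1.17. Pklr, Gckr and Eno3 were chosen after their values were seen: liver pyruvate kinase Pklr fell by 0.59 and 0.81, the glucokinase regulator Gckr fell by 0.43 and 0.37, and Eno3 rose by 0.46 and 0.49.

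**Figure D4:**
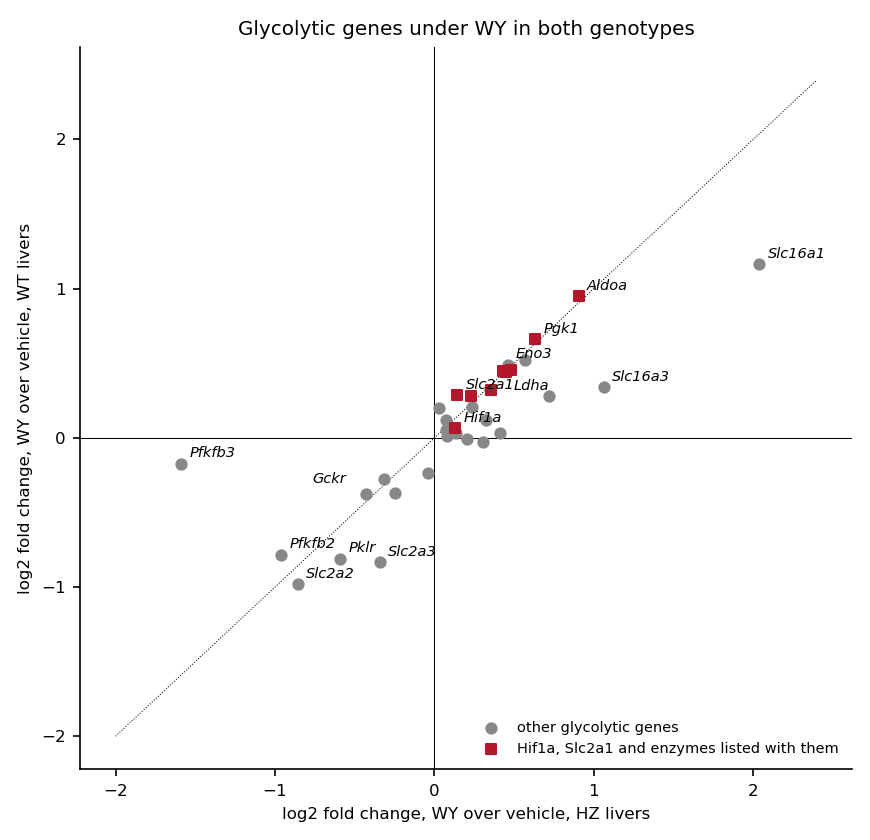
Log2 fold changes of WY over vehicle in HZ livers (horizontal) and WT livers (vertical) for the 9 tested genes described here (red squares) and 24 of the 25 other tested glycolytic genes (grey circles), with the line of equal change dotted. The red squares lie at 0.07 or higher on both axes, while Slc2a2, Pklr and Pfkfb2 lie below 0 on both.

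Between genotypes, 1 of the 25 other glycolytic genes was called in each treatment, beside 2.07% and 3.16% of all genes. Slc16a1 was lower in HZ vehicle livers, at 78.3 ± 26.1 CPM, than in WT vehicle livers, at 143 ± 58.9 CPM (log2 difference -0.87 ± 0.23; edgeR adjusted p = 0.0439), and this call was lost when any 1 of 20 of the 28 libraries was left out (adjusted p up to 0.127). Without the 5 HZ libraries that stood apart it was -0.72 (adjusted p = 0.311). Slc16a3, the lactate exporter MCT4, was higher in HZ WY livers, at 0.928 ± 0.286 CPM, than in WT WY livers, at 0.463 ± 0.150 CPM (0.99 ± 0.26; adjusted p = 0.035), on 4 to 23 reads per library in those groups. Its call was lost without any 1 of 6 libraries, and without the 5 HZ libraries it was 0.70 (adjusted p = 0.253).

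Of 13 genes of HIF subunits and oxygen sensing, 11 were tested. Between genotypes, 0 of the 11 were called under vehicle and 1 under WY, beside 2.07% and 3.16% of all genes. Under WY, Arnt, the partner of HIF-1α, was higher in HZ livers, at 34.7 ± 2.04 CPM, than in WT livers, at 29.4 ± 3.06 CPM (log2 difference 0.24 ± 0.07; edgeR adjusted p = 0.0439). The Arnt call was lost without any 1 of 12 libraries, and with the 5 HZ libraries on the second component left out (0.245, adjusted p = 0.125). After WY, Arnt was lower in WT livers (-0.21, edgeR adjusted p = 0.00908) and did not pass in HZ livers (-0.09, adjusted p = 0.275). With a transcript length trend removed, that fall in WT livers was no longer called (adjusted p = 0.125). Epas1, which encodes HIF-2α, and Hif1an, the asparagine hydroxylase that blocks HIF, did not pass in any comparison. Per kilobase Epas1 stood at 43.3 ± 9.88 CPM in HZ vehicle livers and 42.4 ± 5.67 CPM in WT vehicle livers, above Hif1a in the same livers.

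After WY, 2 of these 11 rose and 3 fell in HZ livers, and 2 rose and 4 fell in WT livers, beside 29.3% higher and 26.4% lower of all genes in HZ and 27.4% and 26.7% in WT livers. Of the prolyl hydroxylases that mark HIF for breakdown, Egln2 and Egln3 rose and Egln1 did not pass (0.09 and 0.03 in HZ and WT livers; edgeR adjusted p = 0.190 and 0.687). Egln3 rose by 0.78 and 0.35 in HZ and WT livers, and Egln2 by 0.20 and 0.49. The coactivator Ep300 fell by 0.39 and 0.56, and Crebbp by 0.29 and 0.43. The Egln3 call in WT livers was lost without any 1 of 5 libraries and the Egln2 call in HZ livers without any 1 of 2. The Egln3 call in WT livers was also lost with a term for animals 71 to 78 (adjusted p = 0.0626). With a transcript length trend removed, the Crebbp calls were lost in both genotypes (adjusted p = 0.341 and 0.103), as were that of Egln2 in HZ livers (0.11; adjusted p = 0.149) and that of Egln3 in WT livers (0.31; adjusted p = 0.0555), and Ep300 was -0.18 and -0.26.

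Of 33 other HIF targets, 28 were tested. Under WY 8 rose and 7 fell in each genotype, shares close to the 29.3% and 26.4% of all genes in HZ and 27.4% and 26.7% in WT livers. Mif, a cytokine, rose by 0.52 and 0.70 in HZ and WT livers, Higd1a by 0.47 and 0.38, and Angptl4, an inhibitor of lipoprotein lipase that is also a PPARα target, by 0.61 and 0.52. Mxi1, a MYC antagonist, fell by 0.51 and 0.42, and the histone demethylase gene Kdm3a by 0.49 and 0.53. With a transcript length trend removed, Mif was 0.25 and 0.34, and Mxi1 was -0.28 in WT livers. Vegfa and Bnip3, both abundant in these livers, did not pass in any comparison. Bnip3 came nearest, at -0.30 ± 0.09 for HZ minus WT under WY (edgeR adjusted p = 0.0569). Between genotypes, 1 of the 28 was called under vehicle and 2 under WY, beside 2.07% and 3.16% of all genes. Ddit4, an inhibitor of mTORC1, was higher in HZ vehicle livers (18.9 ± 6.44 CPM) than in WT vehicle livers (8.23 ± 4.22 CPM). Its log2 difference was 1.20 ± 0.29 (edgeR adjusted p = 0.0307). Under WY, Rora, a nuclear receptor gene, was higher in HZ livers, at 17.4 ± 2.39 CPM, than in WT livers, at 13.7 ± 1.49 CPM (0.35 ± 0.09; adjusted p = 0.0394), as was Slc16a3. The Ddit4 call was lost without any 1 of 6 libraries and the Rora call without any 1 of 8. Both were lost without the 5 HZ libraries that stood apart (edgeR adjusted p = 0.151 and 0.164). After WY, Rora was lower in HZ and WT livers (-0.27 and -0.74, adjusted p = 0.0131 and 1.3e-07). The fall in HZ livers was no longer called with a transcript length trend removed or without the 5 HZ libraries (adjusted p = 0.754 and 0.0825).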

How the data were processed

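Per the labels, livers were flash frozen and RNA-seq libraries made from 28 of them. The authors deposited raw counts of reads per gene symbol, in 1 table for vehicle and 1 for WY libraries. The tools named, per the submitters' processing notes, are STAR 2.5.0a, HTSeq 0.6.1p1 and DESeq2 1.18.1, with the build mm10. Neither annotation nor strand setting is stated in these sources, so overlapping genes on opposite strands cannot be told apart. HTSeq summary rows, and 25 and 27 rows whose names had become dates, were left out.

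Here, filterByExpr kept 12607 genes. TMM scaling and edgeR 4.0.16 (R 4.3.3) robust quasi-likelihood fits with group means on all 28 libraries gave 5 contrasts, and p was adjusted by Benjamini-Hochberg over all genes tested. CPM values are TMM-scaled, and log2 CPM used a prior count of 2. Alternatives used DESeq2 1.42.0, limma 3.58.1 and others given in the closing section. The fits were tested on simulated data. The number in each label was taken as the animal. The labels do not state outright that each number is a separate mouse. Each p-value sets a difference between group means against the spread between these samples. Transcript lengths and positions are from GENCODE M21 and promoters from RefSeq, in which all 10 genes matched by symbol.

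The 10 genes and the lists were chosen with earlier results of these data known. The other genes named are, of each list, those called between genotypes, the 3 smallest p among those called under WY in each genotype, the 3 highest levels, and the gene most correlated with each of the 9, and 1 gene chosen by this rule and 1 marker gene are not reported here.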

Additional observations from a re-analysis of the deposited data

Results flagged for a closer look

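Within groups of 7, 5 of 48 combinations of gene and group held an animal far from the rest by Dixon's test, which by chance marks about 1 in 20. Ldha reached 961.2 CPM in WT WY animal 10, with the next animal at 762.5 CPM. Gpi1 was lowest in WT WY animal 24, at 120.1 CPM, with the next at 133.6 CPM. Slc2a1 was lowest in HZ WY animal 18, at 9.99 CPM, with the next at 12.57 CPM. Tpi1 was lowest in HZ WY animal 21, at 340.0 CPM, with the next at 406.5 CPM, and that library is among the 5 that stood apart. Gm5506 reached 23.57 CPM in HZ vehicle animal 34, with the next at 16.29 CPM. For Ldha, Gpi1, Slc2a1 and Tpi1, leaving out the animal named for that gene neither ended nor made a call of it.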

How the results depend on the processing

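No paired analysis was possible because no animal number occurs in more than 1 group. The count of the 9 genes called was 0 between genotypes in both treatments and 0 for the difference in response under every alternative and with each library left out, 7 under WY in HZ livers with each library left out, and 7 to 8 in WT livers. Counts over all genes moved more. For HZ against WT under vehicle (261 genes), DESeq2 gave 512, limma with voom 703, no filter on low counts 146, a term for animals 71 to 78 gave 69, and fitting only the groups compared or leaving out the 5 HZ libraries (chosen after seeing the data) gave 0, and single libraries left out gave 43 to 650. For HZ against WT under WY (398 genes, 179 higher and 219 lower), DESeq2 size factors gave 683 (203 higher and 480 lower), DESeq2 1094, limma 934, no filter 153, a removed length trend 138 (37 higher and 101 lower), without the 5 HZ libraries 48 (28 higher and 20 lower), and single libraries left out 74 to 977. For the interaction (0), DESeq2 gave 4 and limma 1, and single libraries left out 0 to 1. The cause was not tested.

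Uncalled log2 differences near 0 changed sign as follows. For Slc2a1 under vehicle, HZ minus WT was 0.0026 with DESeq2 size factors, 0.00056 with DESeq2, 0.10 with limma, 0.021 with genes filtered at a mean of 5 CPM, 0.0096 with only the groups compared and 0.0060 without the 5 HZ libraries. For Gpi1 under vehicle it was 0.011, 0.0027 and 0.024 with the last 3 of these settings, for Tpi1 0.020 without the 5 HZ libraries, and for Pgam1 -0.024 with limma and -0.0098 without the 5 HZ libraries. Under WY, Gpi1 gave -0.016, -0.018 and -0.0092 with DESeq2 size factors, DESeq2 and a removed length trend, and Tpi1 -0.014 and -0.016 with DESeq2 size factors and DESeq2. For the interaction, Gpi1 gave -0.013 with DESeq2 size factors and with DESeq2, -0.0068 with the 5 CPM filter and -0.0077 with a removed length trend, Hif1a -0.0052 without the 5 HZ libraries, Ldha 0.016 with the term for animals 71 to 78 and 0.0059 with a removed length trend, and Pgam1 -0.00058 with DESeq2 and -0.019 with the term for animals 71 to 78.

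With single libraries left out, HZ minus WT under vehicle ran from -0.047 to 0.064 for Slc2a1, -0.16 to 0.033 for Ldha, -0.053 to 0.0011 for Pfkl, -0.084 to 0.019 for Tpi1, -0.027 to 0.078 for Pgam1 and -0.097 to 0.035 for Gpi1, and under WY from -0.015 to 0.049 for Tpi1, -0.0035 to 0.099 for Pgam1 and -0.027 to 0.043 for Gpi1. The interaction ran from -0.11 to 0.087 for Ldha, -0.082 to 0.0048 for Pgk1, -0.089 to 0.031 for Aldoa, -0.015 to 0.088 for Tpi1, -0.029 to 0.079 for Pgam1 and -0.032 to 0.0996 for Gpi1. Of the 5 list genes called between genotypes, Slc16a1, Ddit4, Slc16a3, Arnt and Rora, all lost the call with no filter on low counts. Slc16a1 and Ddit4 also lost it with the term for animals 71 to 78 and with only the groups compared, and Slc16a3, Arnt and Rora with a removed length trend. Few reads stand behind Eno1, Sirt6, Slc16a3 and Pgam1.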
